A study of Mus musculus with 12 samples.

Results

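The serpin A1 and A3 genes described here are the 10 rows of the gene count table that carry the symbols Serpina1a, Serpina1b, Serpina1c, Serpina1d, Serpina1e, Serpina3c, Serpina3g, Serpina3k, Serpina3m and Serpina3n, out of 25611 genes in all. They were matched by symbol, and the choice of these families was made with earlier results of these data known. Livers were taken whole 30 hr after surgery from male C57BL/6J mice aged 8 to 10 weeks, and their RNA was sequenced in 3 groups of 4 mice, 12 in all. Sham mice had an abdominal incision without ligation or puncture, CLP mice underwent cecal ligation and puncture, a model of polymicrobial sepsis, and CLP+DCA mice had the same injury and received dichloroacetate (DCA, an inhibitor of the pyruvate dehydrogenase kinases) at 25 mg/kg, 24 hr after surgery and thus 6 hr before the liver was taken. By the labels every mouse was injected 24 hr after surgery, and what sham and CLP mice were given then is not named in the sources used here. A group of sham mice given DCA was not analysed here, so that DCA is compared only within injured mice. Each mouse gave 1 library, and "replicate 3" of a group means the mouse that carries this number in its label.

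Serpins are protease inhibitors that trap their target by a large change of shape, which consumes the inhibitor. Alpha-1-antitrypsin, the product of the single human gene SERPINA1, is made mainly by hepatocytes, is secreted into plasma and holds neutrophil elastase in check, and the mouse carries several near-identical copies of the gene (Serpina1a to Serpina1e). Alpha-1-antichymotrypsin, the product of human SERPINA3, is an acute phase protein that inhibits chymotrypsin-like proteases such as cathepsin G, and in the mouse its gene is expanded into the Serpina3 cluster, of which Serpina3n is the best known acute phase member, Serpina3k binds tissue kallikrein, Serpina3c and Serpina3m are close relatives of Serpina3k and Serpina3g (Spi2A) is an intracellular inhibitor of cathepsins.

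All 10 genes lie in the serpin cluster of mouse chromosome 12 (mm10). In the count table the Serpina1 copies, all on the minus strand, run from Serpina1b (103728156 to 103738189) over Serpina1d (103763587 to 103773633), Serpina1a (103853295 to 103863619) and Serpina1c (103894926 to 103904950) to Serpina1e (103946932 to 103956897). The Serpina3 genes follow, Serpina3c on the minus strand (104146907 to 104153872) and, on the plus strand, Serpina3g (104214454 to 104241944), Serpina3k (104338486 to 104345739), Serpina3m (104387164 to 104394257) and Serpina3n (104406708 to 104414329). The interval given for Serpina3g also holds Serpina3f, so that counts of this pair are uncertain. The longest coding transcripts of the 5 Serpina1 genes in GENCODE, an annotation of the same build, were 92.1 to 97.9% identical over the aligned bases in the 10 pairs, and those of the 5 Serpina3 genes 77.2 to 91.4%. The copies therefore differ in how far a 100-base read can be placed. Of all 100-base windows of its coding transcripts, Serpina1c shared 69.3% letter for letter with another gene, Serpina1a 42.8%, Serpina1d 29.3%, Serpina1b 14.8% and Serpina1e 14.4%, while Serpina3m shared 6.09%, Serpina3k 4.85%, Serpina3g 3.67%, Serpina3n 0.204% and Serpina3c 0%. Levels of single Serpina1 copies are thus less certain than their sum, above all for Serpina1c and Serpina1a.

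The near-identity of the Serpina1 copies extends upstream of the gene. The stretches shown here, from the RefSeq promoter windows of GRCm38.p6, are aligned on the letters GTTAAT, a half-site of HNF1, a factor of hepatocyte genes, and the capitals mark this half-site. They show which bases differ between the copies, and whether these bases bear on the levels was not tested.
Serpina1a, chr12:103863625-103863700, minus strand: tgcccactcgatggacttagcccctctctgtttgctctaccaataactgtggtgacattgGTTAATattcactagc
Serpina1b, chr12:103738200-103738275, minus strand: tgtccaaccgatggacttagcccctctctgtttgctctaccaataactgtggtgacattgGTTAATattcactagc
Serpina1c, chr12:103904962-103905037, minus strand: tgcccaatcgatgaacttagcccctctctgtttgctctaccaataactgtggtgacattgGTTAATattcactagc
Serpina1d, chr12:103773634-103773709, minus strand: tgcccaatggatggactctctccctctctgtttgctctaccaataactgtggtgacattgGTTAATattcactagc
Serpina1e, chr12:103956960-103957035, minus strand: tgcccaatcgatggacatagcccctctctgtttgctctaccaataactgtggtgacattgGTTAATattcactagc
Over these 76 bases, Serpina1d differed from each other copy at 6 or 7 positions, and the other copies differed from one another at 2 or 3. Over the aligned bases of the whole 250-base windows Serpina1d did not stand out. It was 92.1 to 96.3% identical to the other copies, and these were 92.2 to 98.0% identical to one another.

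Promoter windows were matched for 8 of the 10 genes, and Serpina3k and Serpina3m had none. In the 250 bases before the annotated start, searched on both strands, GTTAAT was found in all 5 Serpina1 genes, once each, on the minus strand of Serpina3c, 239 bases before its start, and in 6.43% of 32851 promoters. The Serpina1 windows are near-identical, so that matches of a motif in several of them are not independent. The C/EBP motif TTGCNNAA was found in Serpina1b, Serpina1d and Serpina1e and in 9.56% of promoters. The NF-kB motif, GGG and TTTCC with 2 bases of any kind between, was found in Serpina3n and Serpina3g and in 1.41% of promoters, and the STAT motif TTCNNNGAA in Serpina3g alone and in 7.02% of promoters. Serpina3n and Serpina3c have closely related promoters, 92.7% identical over 247 aligned bases. The next 2 lines show a stretch that matches this NF-kB pattern, in capitals, in Serpina3n. In Serpina3c the same stretch misses the exact pattern, and looser forms of the motif were not searched. The third line shows the STAT letters of Serpina3g.
Serpina3n, chr12:104406517-104406576, plus strand: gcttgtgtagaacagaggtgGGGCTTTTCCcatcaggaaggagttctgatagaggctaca
Serpina3c, chr12:104154001-104154060, minus strand: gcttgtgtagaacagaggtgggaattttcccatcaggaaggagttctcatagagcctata
Serpina3g, chr12:104236084-104236143, plus strand: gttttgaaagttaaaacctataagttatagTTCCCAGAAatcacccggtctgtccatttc
These matches describe letters only, and binding was not measured. The Serpina3g stretch lies inside the interval of this gene in the count table (104214454 to 104241944). Its promoter window therefore belongs to a later start than that of the counted interval.

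The gene counts of a mouse summed to 24436513 reads at the lowest, 30005989 at the median and 44266819 at the highest. Counts were compared in 1 fit of all 12 mice with edgeR's quasi-likelihood test, and a gene was called at a Benjamini-Hochberg adjusted p (FDR) under 0.05 over the 13190 genes that passed the low-count filter, among them all 10 serpins. Levels are given in CPM, read counts scaled to a common normalized library size. The library of CLP+DCA replicate 3 stood apart. Over all tested genes, CLP+DCA replicates 1, 2 and 4 had a mean correlation of 0.966 to 0.970 with their own group, replicate 3 included. Their means were 0.982 to 0.988 with the sham mice and 0.961 to 0.965 with the CLP mice. For CLP+DCA replicate 3 the mean was 0.926 with its own group, 0.910 with the sham mice and 0.959 with the CLP mice. The common biological coefficient of variation of the fit was 0.261 with all mice and 0.195 without this mouse, while leaving out any other mouse gave 0.252 to 0.277. The tests of the serpins, their correlations and the gene lists are given with and without it.

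To set genes side by side, levels were divided by the length of all coding exons of a gene in GENCODE, from 1361 bases (Serpina1c) to 2415 bases (Serpina1b). The annotation of the counting is not given, so that the order of genes close in level can depend on these lengths. On this scale Serpina1e had the highest level in sham, 7402 ± 2410 CPM per kb (mean ± SD, n = 4), followed by Serpina3k (4869 ± 447), Serpina1c (2864 ± 341), Serpina1b (1666 ± 173), Serpina1d (1652 ± 241), Serpina1a (1139 ± 120), Serpina3n (860 ± 26.8) and Serpina3m (321 ± 24.2). Serpina3g (2.11 ± 0.399) and Serpina3c (0.335 ± 0.116) were near the bottom of the range. At these lengths, neighbours in this order did not overlap between mice, except Serpina1b and Serpina1d. In CLP, Serpina3k (9560 ± 1737 CPM per kb) and Serpina1e (7945 ± 1659) overlapped at the top, and Serpina3n (3670 ± 1500) had moved past Serpina1a, Serpina1b and Serpina1d and overlapped with Serpina1c (2330 ± 235). By mean CPM among all genes, Serpina3n stood at rank 67 in sham and 19 in CLP, and Serpina3m at rank 202 and 66. Serpina1e and Serpina3k were among the 15 most abundant genes in each group.

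The comparison of CLP with sham asks which hepatic transcripts differ in sepsis. Of the 10 serpins, 3 were called, all higher in CLP: Serpina3n, Serpina3m and Serpina3k. Among all genes tested, 2.78% were called, 1.64% higher and 1.14% lower (216 and 151 genes, or 100 and 109 when counts are scaled by library size alone). None of the 5 Serpina1 genes was called. In the edgeR fit 2 of them had an unadjusted p under 0.05, beside 3772 of the 13190 genes tested. The median log2 fold change was 1.69 over the Serpina3 genes and -0.30 over the Serpina1 genes, beside 0.02 over all genes tested. For 8 of the 10 serpins the 4 CLP mice did not overlap the 4 sham mice, all 5 Serpina3 genes higher and Serpina1b, Serpina1c and Serpina1d lower, and the groups did not overlap for 26.5% of all genes tested.

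Serpina3n, the acute phase member, measured 1739, 1758, 1749 and 1858 CPM in sham replicates 1 to 4 and 5609.9, 11128, 4434 and 9130.0 CPM in CLP replicates 1 to 4. The sham mice lay within a narrow range (SD 55.3 CPM), and the highest CLP mouse was far above the lowest. The log2 fold change was 2.09 (with its standard error, SE, of 0.45, 4.27-fold, adjusted p = 0.0415 by edgeR's quasi-likelihood test). Serpina3m measured 523, 608, 518 and 556 CPM in sham and 1351, 2515, 1200.3 and 2027 CPM in CLP, or 1.69 higher on the log2 scale (SE 0.35, adjusted p = 0.0385 by the same edgeR test). CLP replicates 2 and 4 were again the highest, as for Serpina3n. Serpina3k, which binds tissue kallikrein, took the most reads of the Serpina3 genes in every mouse, and measured 10775, 9115, 9335 and 10842 CPM in sham and 18700, 23276, 15115 and 21566 CPM in CLP. Its log2 fold change of 0.97 (SE 0.22, adjusted p = 0.0463 in edgeR) was smaller than those of Serpina3n and Serpina3m, although its mean level differed by more CPM.

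Serpina3c, a close relative of Serpina3k that rested on 20 to 29 reads per sham mouse, measured 1.004, 0.495, 0.918 and 0.547 CPM in sham and 4.01, 15.4, 2.54 and 11.05 CPM in CLP. This log2 fold change of 3.47 (SE 0.95) was the largest among the serpins described and was not called (adjusted p = 0.0654, edgeR). Serpina3g, the intracellular inhibitor, measured 4.09, 3.39, 5.07 and 5.14 CPM in sham and 8.20, 11.2, 7.76 and 6.33 CPM in CLP, or 0.92 higher on the log2 scale (SE 0.26, adjusted p = 0.0692, edgeR). For both genes the groups did not overlap. Serpina3f, which lies within the Serpina3g interval, measured 1.41 to 2.02 CPM in sham and 2.14 to 18.4 CPM in CLP, and was chosen for mention after its values were seen.

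The Serpina1 copies did not move alike. Serpina1d measured 2220.5, 1894, 2395 and 2699 CPM in sham and 1462, 1083, 1382 and 1274 CPM in CLP, so that each CLP mouse lay below each sham mouse. The log2 fold change of -0.82 (SE 0.23, 95% confidence interval -1.33 to -0.32, adjusted p = 0.0685 in edgeR) missed the threshold. Serpina1b measured 3862, 3514, 4284 and 4438 CPM in sham and 3123, 2604, 2687 and 2877 CPM in CLP, or -0.51 on the log2 scale (SE 0.18, adjusted p = 0.104, edgeR). Serpina1c ranged from 3607 to 4589 CPM in sham and from 2719 to 3467 CPM in CLP (log2 fold change -0.30, adjusted p = 0.261, edgeR), and Serpina1a from 1817 to 2317 and from 1746 to 1987 CPM (-0.19, adjusted p = 0.439, edgeR). Serpina1e, the most abundant copy, measured 13734.5, 8848, 8657.5 and 16633 CPM in sham and 15090, 12995, 9037 and 14267 CPM in CLP. Its sham mice formed a low and a high pair, and its log2 fold change was 0.10 (SE 0.26, adjusted p = 0.809, edgeR) with a 95% confidence interval of -0.46 to 0.66, while scaling by library size alone gave -0.08.

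**Figure D1:**
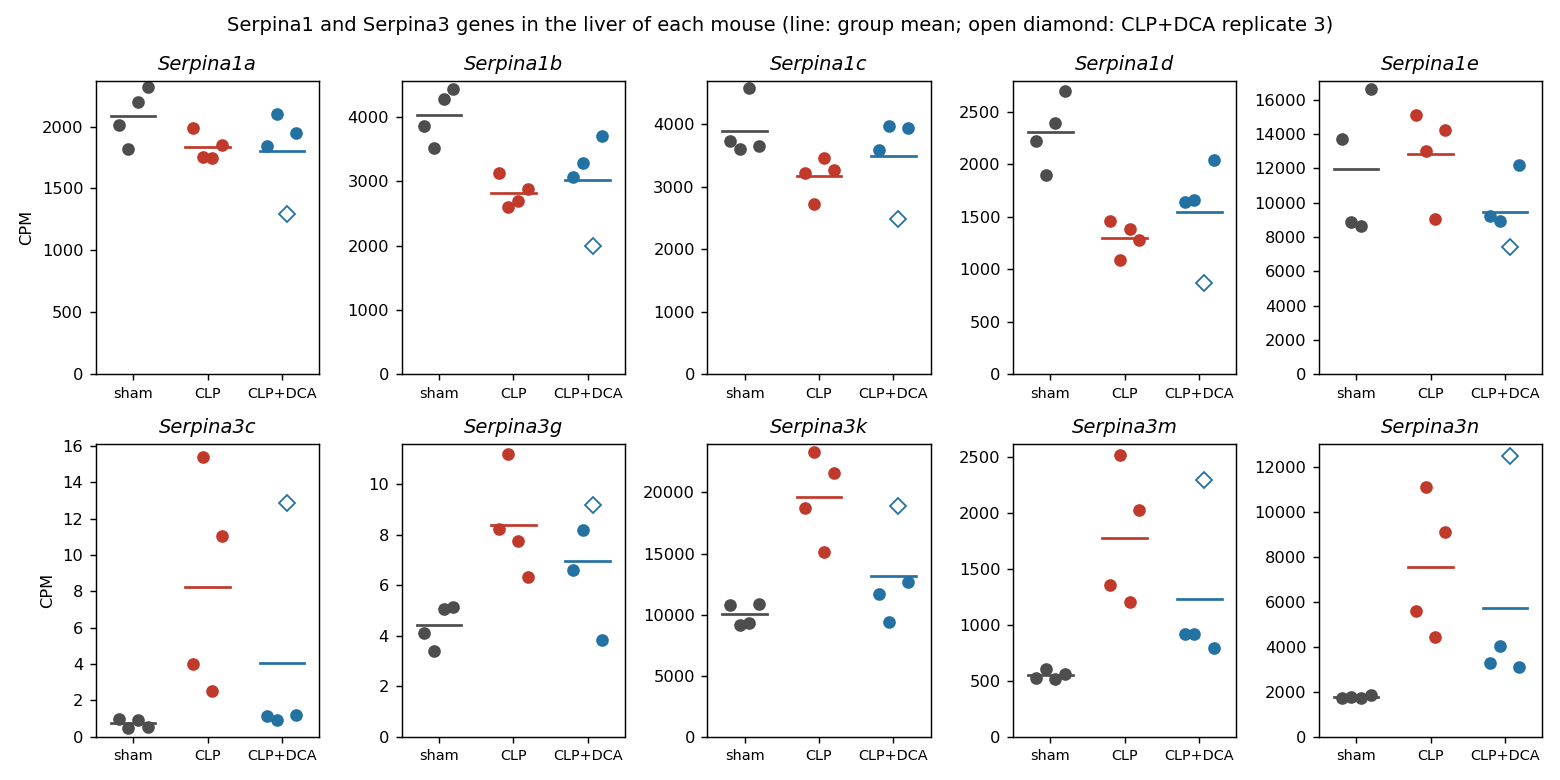
Level of each of the 10 serpin genes in CPM (vertical axes, each from 0) in the 4 sham (grey), 4 CLP (red) and 4 CLP+DCA mice (blue), 1 point per mouse, with lines at the group means and an open diamond for CLP+DCA replicate 3. All 5 Serpina3 genes are higher in each CLP mouse than in each sham mouse, and CLP+DCA replicate 3 lies among the CLP mice or above them for the Serpina3 genes and below all other mice for each Serpina1 gene.

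How many serpins were called depended on which mice shared the fit. Without CLP+DCA replicate 3, which is not in this comparison but shares its estimate of the spread, 7 of 10 were called, beside 23.8% of all genes tested: Serpina3c, Serpina3g, Serpina3k, Serpina3m and Serpina3n higher (adjusted p = 0.00398, 0.0204, 0.00398, 0.00113 and 0.00112 in edgeR) and Serpina1b and Serpina1d lower (0.0150 and 0.00491, edgeR). The same 7 serpins were called by DESeq2 on the 8 mice compared, beside 23.2% of the genes with an adjusted p. Leaving out any 1 of the 4 sham mice, CLP replicate 1, 2 or 4 or CLP+DCA replicate 1 or 2 left 0 of 10 called, beside 0.0749 to 1.06% of all genes. Leaving out CLP replicate 3 gave 4, beside 7.46% of all genes, and leaving out CLP+DCA replicate 4 also gave 4, beside 3.92%. The fold changes themselves moved little over the 12 fits that leave out a mouse, from 1.85 to 2.28 on the log2 scale for Serpina3n, from 1.47 to 1.83 for Serpina3m, from 0.88 to 1.08 for Serpina3k and from -0.91 to -0.74 for Serpina1d.

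Summed over each family, the serpins took 3.33 to 4.42% of all reads in sham and 4.07 to 4.97% in CLP. The 5 Serpina1 genes together took 2.11 to 3.06% in sham and 1.81 to 2.44% in CLP, and the ranges overlapped. The 5 Serpina3 genes took 1.23 to 1.38% in sham and 2.16 to 3.16% in CLP. By the means of log2 CPM their sum was 2.30-fold higher in CLP, with no overlap. There were 0.446 to 0.584 Serpina3 reads per Serpina1 read in sham and 1.03 to 1.75 in CLP, so that the family with fewer reads in each sham mouse had more reads in each CLP mouse. These sums are given without a test.

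Within the families the make-up differed as well. Serpina3k made up 81.0 ± 1.44% of the Serpina3 reads in sham and 68.6 ± 4.98% in CLP (SD, n = 4 each), and Serpina3n 14.4 ± 0.923% and 25.3 ± 4.37%. Serpina1d made up 9.55 ± 0.932% of the Serpina1 reads in sham and 5.99 ± 1.08% in CLP, and Serpina1b 16.8 ± 2.17% and 12.9 ± 1.16%, both without overlap between the groups. The share of Serpina1e was 48.4 ± 7.81% in sham and 58.0 ± 5.79% in CLP, which overlapped. Reads that could belong to several copies may be split unevenly in these shares, which the files do not resolve.

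**Figure D2:**
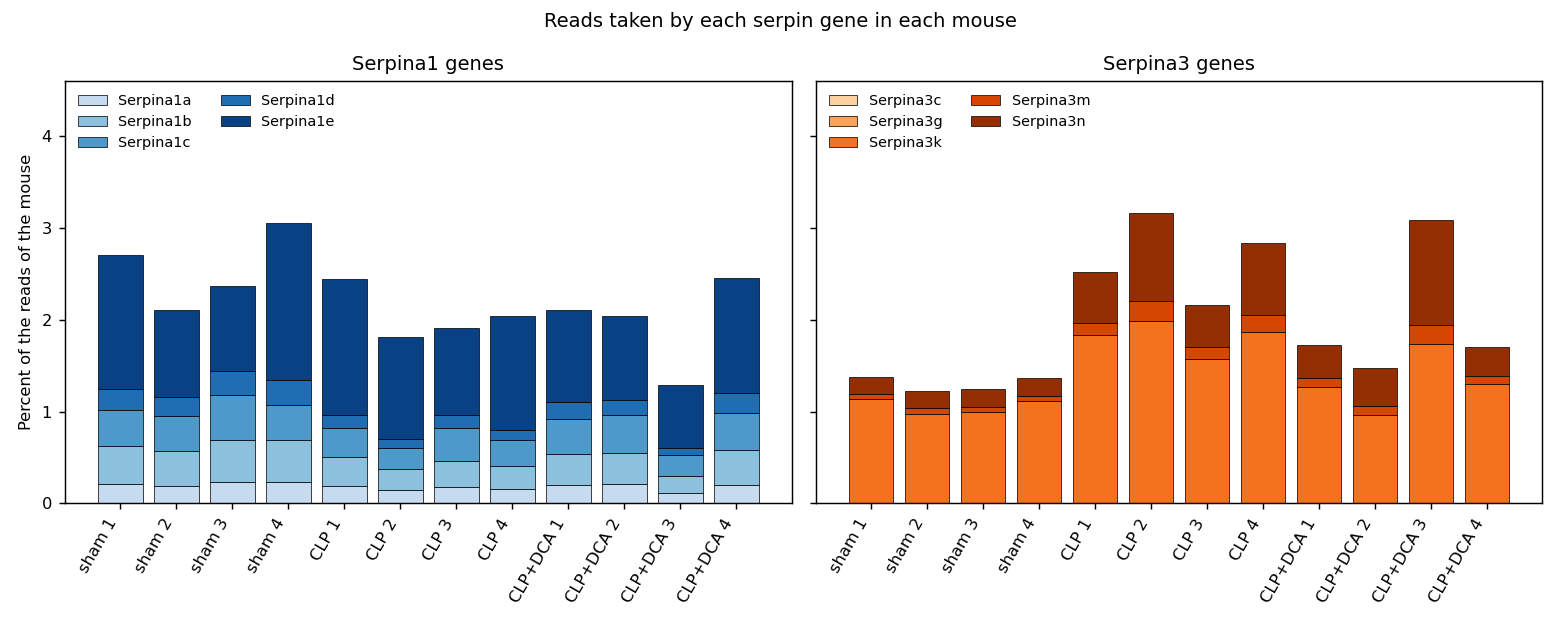
Percent of the reads of each mouse (vertical axis, from 0) taken by each Serpina1 gene (left, blue shades) and each Serpina3 gene (right, orange shades), stacked, 1 bar per mouse. Serpina3c and Serpina3g are too low to be seen, and the Serpina3 bars reach 2.16 to 3.16% in the CLP mice and 3.09% in CLP+DCA replicate 3, above the 1.23 to 1.38% of sham.

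The comparison of CLP+DCA with sham asks what remained different after DCA. None of the 10 serpins was called by edgeR, beside 0.0379% of all genes. In this edgeR fit 6 of them had an unadjusted p under 0.05, beside 1714 of the 13190 genes tested. DESeq2 on the 8 mice compared called Serpina3m and Serpina3n (adjusted p = 0.0475 and 0.0112 in DESeq2), beside 1.19% of all genes. Serpina3n measured 3302.5, 4062, 12517 and 3113 CPM in CLP+DCA replicates 1 to 4, all above the sham mice, or 1.69 higher on the log2 scale (SE 0.45, adjusted p = 0.230, edgeR). Replicate 3 exceeded every CLP mouse, and the other 3 lay below every CLP mouse. Serpina3m measured 920.0, 913, 2291 and 789 CPM, also all above sham, or 1.16 higher on the log2 scale (SE 0.34, adjusted p = 0.269, edgeR). These were the 2 of 10 serpins whose groups did not overlap, beside 9.76% of all genes.

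Without CLP+DCA replicate 3, 0 of 10 serpins were called by edgeR, beside 0.0828% of all genes. Serpina3n and Serpina3m still did not overlap sham, beside 13.3% of all genes, but their log2 fold changes were 0.98 (SE 0.26, adjusted p = 0.267) and 0.66 (SE 0.22, adjusted p = 0.383) in edgeR, against 1.69 and 1.16 with it. Serpina3c, at 1.15, 0.907, 12.9 and 1.21 CPM in the CLP+DCA mice, went from a log2 fold change of 2.47 to 0.58 without replicate 3. Serpina3k, at 11673, 9385, 18848.5 and 12649 CPM, went from 0.39 to 0.17. The Serpina1 copies were lower than sham by small amounts that were not called, from -0.57 (Serpina1d) to -0.15 (Serpina1c) with replicate 3 and from -0.37 (Serpina1d) to -0.02 (Serpina1c) without it.

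The comparison of CLP+DCA with CLP asks what DCA altered in injured mice. With all mice, no serpin was called by edgeR, beside 0.00758% of all genes, and no serpin's groups were apart, beside 4.37% of all genes. Only 1 serpin, Serpina3k, had an unadjusted p under 0.05 in edgeR, beside 1319 of the 13190 genes tested. The log2 fold changes were -0.58 for Serpina3k (SE 0.22, 95% confidence interval -1.07 to -0.10), -0.53 for Serpina3m (SE 0.34), -0.40 for Serpina3n (SE 0.44, interval -1.35 to 0.56) and -1.01 for Serpina3c (SE 0.84). Among the Serpina1 genes they ran from -0.44 (Serpina1e) to 0.25 (Serpina1d). For Serpina1a the sign turned to 0.10 without CLP+DCA replicate 3 and when scaled by library size alone.

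Without CLP+DCA replicate 3, 4 of 10 serpins were called, all lower in CLP+DCA, beside 4.64% of all genes. The log2 difference of Serpina3n was -1.12 (SE 0.27, adjusted p = 0.0420), that of Serpina3m -1.02 (SE 0.23, adjusted p = 0.0333), that of Serpina3k -0.81 (SE 0.18, adjusted p = 0.0329) and that of Serpina3c -2.89 (SE 0.60, adjusted p = 0.0318), all by edgeR's quasi-likelihood test. The 3 remaining CLP+DCA mice lay below all 4 CLP mice for these 4 genes and above them for Serpina1c and Serpina1d, that is for 6 of 10 serpins beside 22.8% of all genes. This comparison of groups without overlap was added after the data were seen. The voom fit of limma, which gives less weight to libraries that stand apart, called the same 4 serpins with all 12 mice, beside 10.2% of all genes. Serpina3g measured 6.61, 8.20, 9.15 and 3.85 CPM in the CLP+DCA mice and overlapped both other groups with and without replicate 3.

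**Figure D3:**
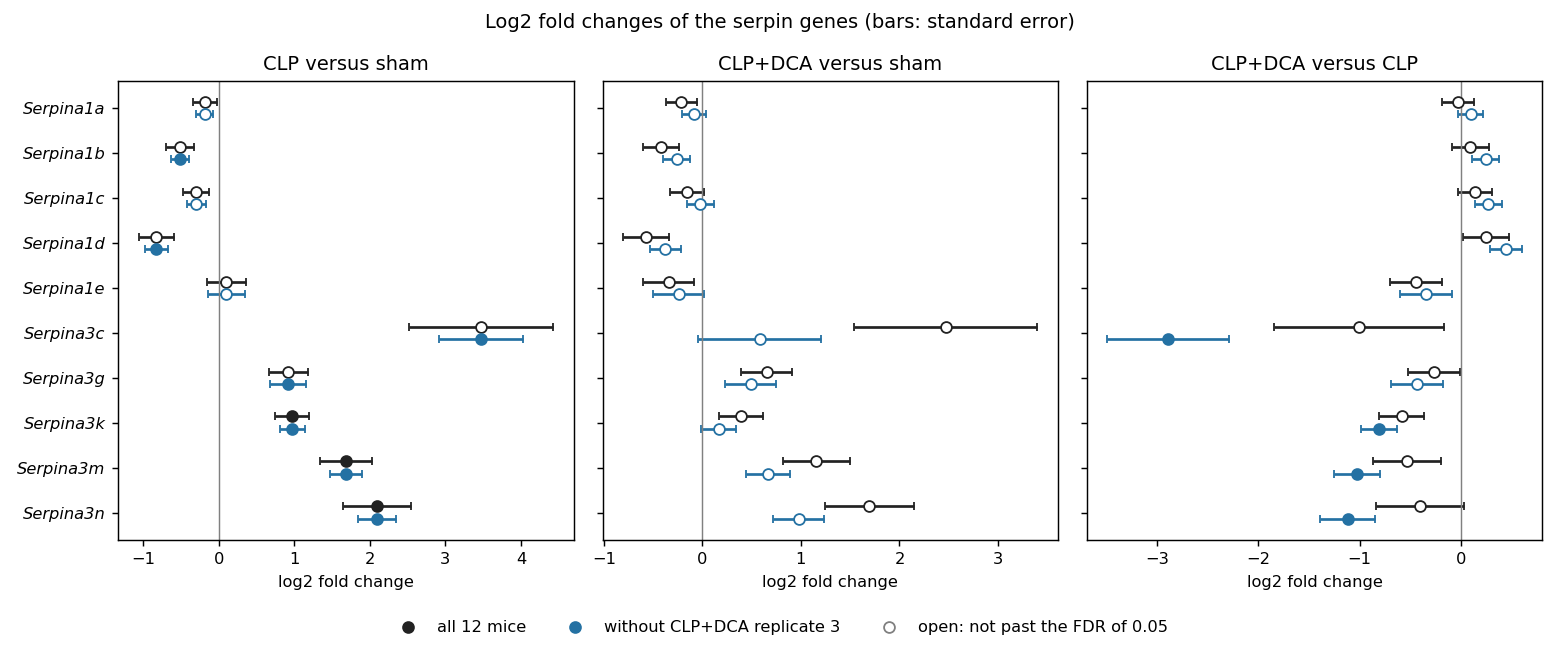
Log2 fold change of each serpin gene (horizontal axes) with its standard error (bars) in the 3 comparisons, from the fit of all 12 mice (black) and from the fit without CLP+DCA replicate 3 (blue), filled where the adjusted p was under 0.05. In CLP versus sham the values coincide and the bars shorten without this mouse, and in CLP+DCA versus CLP the 4 values called without it, Serpina3c, Serpina3k, Serpina3m and Serpina3n, lie from -2.89 to -0.81.

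CLP+DCA replicate 3 had the lowest level of each of the 5 Serpina1 genes among the 12 mice, down to 865 CPM for Serpina1d and 1991 CPM for Serpina1b. Its Serpina3 genes took 3.09% of its reads and its Serpina1 genes 1.29%, 2.40 Serpina3 reads per Serpina1 read, the highest ratio of the 12 mice, against 0.694 to 0.820 in the other CLP+DCA mice. Its hepatocyte markers and its neutrophil markers other than Lcn2, given with the cell type markers, were also the lowest and the highest of the 12 mice. The label of this mouse was kept as given.

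Over the 12 mice, Serpina3m and Serpina3n followed each other most closely (Pearson r of log2 CPM 0.991, and 0.984 for deviations from the group means). Serpina3c followed Serpina3m (0.954) and Serpina3k (0.953), and Serpina3g followed Serpina3n less closely (0.810). Serpina1b and Serpina1d went together (0.982), and Serpina1d went against Serpina3m (-0.95) and Serpina3n (-0.94). Serpina1e stood apart from both, with an r of -0.05 with Serpina3n and 0.29 with Serpina1d. Taken over the 11 mice other than CLP+DCA replicate 3, r was 0.991 for Serpina3m and Serpina3n (0.954 within groups), 0.942 and 0.961 for Serpina3c with Serpina3m and Serpina3k, 0.789 for Serpina3g with Serpina3n and 0.9754 for Serpina1b and Serpina1d. Serpina1d still went against Serpina3m (-0.947, and -0.680 within groups) and Serpina3n (-0.924, and -0.533 within groups), while Serpina1e had an r of 0.245 with Serpina3n and 0.0156 with Serpina1d. Mice of a group share their treatment, and copies may share reads, so that these values describe the data and are given without a p.

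Among 9078 other genes with a mean of at least 5 CPM, those whose pattern over the 12 mice was most like that of Serpina3n were Hpx (hemopexin, the heme carrier of plasma, r = 0.989), Lcn2 (lipocalin 2, which binds bacterial siderophores, 0.985), Susd6 (0.984), Cyb561 (0.982) and Fgg (the fibrinogen gamma chain, 0.981). By Spearman's rho, Susd6 alone stayed among the 5 nearest. The genes most like the summed Serpina1 level were Cldn1 (claudin 1, a tight junction protein, 0.947), Zfand4 (0.901), Bivm (0.880), Zmym3 (0.874) and Slc6a12 (a betaine and GABA transporter, 0.870), of which Cldn1, Bivm and Slc6a12 were also among the 5 nearest by rho. Over the same 11 mice, Hpx and Lcn2 stayed among the 5 nearest to Serpina3n, and Cldn1 alone among the 5 nearest to the Serpina1 sum.

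Other genes of the pathway were taken as lists. Here and for the cell type markers below, counts in CLP versus sham stand beside those of all genes. Of all genes tested, edgeR called 2.78%, and 3772 of 13190 had an unadjusted p under 0.05. DESeq2 on the 8 mice called 23.2% of the genes with an adjusted p. Of 30 other serpin genes, 23 were tested in CLP versus sham and 0 were called by edgeR (11 had an unadjusted p under 0.05, and DESeq2 on the 8 mice called 15). Nearest to the threshold were Serpinf1 (pigment epithelium-derived factor), with a log2 fold change of -1.26 (adjusted p = 0.0604, edgeR), and Serpina3h, at 0.295 CPM in sham and 0.865 CPM in CLP, with 1.54 (adjusted p = 0.0678, edgeR). Their median was 0.12. Of 22 proteases that these serpins are known to meet or whose relatives they inhibit, 13 were tested and 1 was called: Mmp9, a gelatinase of neutrophils that can cleave serpins, at 0.495 ± 0.180 CPM in sham and 2.54 ± 0.802 CPM in CLP (log2 fold change 2.38, adjusted p = 0.0461, edgeR). Elane, which encodes neutrophil elastase, the main target of alpha-1-antitrypsin, was at 0.288 CPM in sham and 0.367 CPM in CLP, and Ctsg, Gzma and Gzmb were under 1 CPM over all mice.

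Of 26 cytokine receptors and transcription factors of the acute phase response, all were tested and 2 were called, both higher in CLP: Cebpd (C/EBP delta, an activator of acute phase genes), from 4.70 ± 1.81 to 21.3 ± 9.28 CPM (log2 fold change 2.17, adjusted p = 0.0283, edgeR), and Nfkbiz (I kappa B zeta, a nuclear regulator of NF-kB targets), from 12.7 ± 0.665 to 35.9 ± 15.0 CPM (1.501, adjusted p = 0.0450, edgeR). The median of the list was 0.21. Of 29 genes for folding and export of secreted glycoproteins, a load to which these serpins belong, 0 were called by edgeR (14 had an unadjusted p under 0.05, and DESeq2 on the 8 mice called 14). All 29 fold changes were above 0, with a median of 0.53, and Mcfd2, a subunit of a cargo receptor for export from the ER, had the smallest p, with 0.58 (adjusted p = 0.0695, edgeR). Sel1l, a part of the ER degradation machinery, followed with 0.73 (adjusted p = 0.0755, edgeR). In CLP+DCA versus CLP, 28 of the 29 fold changes were below 0, with a median of -0.27, and 0 were called by edgeR. An unadjusted p under 0.05 in edgeR was found for 3, beside 1319 of the 13190 genes tested. Without CLP+DCA replicate 3 all 29 were below 0, with a median of -0.41, and 1 was called, beside 4.64% of all genes. This was Uggt1, a folding sensor of glycoproteins, which was lower and was named after its values were seen. In CLP versus sham the fit without CLP+DCA replicate 3 called 23.8% of all genes. It called 8 other serpins higher and 4 lower of 23, and 4 proteases higher and 3 lower of 13. Of 26 regulators it called 6 higher and 4 lower, and of 29 folding and export genes 13, all higher.

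Some markers of hepatocytes and neutrophils differed in the mice in which the serpins differed. In whole liver, fewer cells of a type and less RNA per cell cannot be told apart. Of 14 hepatocyte markers tested, 2 were called in CLP, both lower: Alb, albumin, with a log2 fold change of -1.11 (adjusted p = 0.0463, edgeR), and Apoc3, with -0.81 (adjusted p = 0.0366, edgeR). Their summed level was 78976 to 99052 CPM in sham, 40020.3 to 58008 CPM in CLP, 64085 to 72357 CPM in CLP+DCA replicates 1, 2 and 4 and 34804 CPM in CLP+DCA replicate 3. Alb alone made up 49.6 to 59.0% of this sum in sham and 38.3 to 45.3% in CLP, and without it the other 13 summed to 39310 to 41756 CPM in sham, 24698 to 34156 CPM in CLP, 36804 to 39043 CPM in CLP+DCA replicates 1, 2 and 4 and 19288 CPM in CLP+DCA replicate 3. Of the 14, 12 had a log2 fold change below 0 in CLP and 2 above, Arg1 (0.61, adjusted p = 0.0799, edgeR) and Apob (0.26, adjusted p = 0.265, edgeR), both named after their values were seen. Ass1, which periportal hepatocytes express strongly, was at 0.689 CPM in sham. Of 12 neutrophil markers tested, 3 were called, all higher: Lcn2, Retnlg and Mmp9 (log2 fold changes 4.09, 3.10 and 2.38, adjusted p = 0.0294, 0.0254 and 0.0461 in edgeR). Of the 12, 11 had a log2 fold change above 0 in CLP and 1 below. The latter was Ly6g, at 0.823 CPM in sham and 0.459 CPM in CLP (-0.78, adjusted p = 0.136, edgeR), named after its values were seen. Lcn2, which hepatocytes express in the acute phase, made up at least 97.7% of the summed neutrophil markers, and the other 14 summed to 6.997 to 10.04 CPM in sham, 34.5 to 48.9 CPM in CLP, 7.06, 15.4 and 7.76 CPM in CLP+DCA replicates 1, 2 and 4 and 63.7 CPM in CLP+DCA replicate 3. Of these, 8 had a mean under 1 CPM, Ly6g, Mpo and Elane among them, and none was without reads in all mice. In the fit without CLP+DCA replicate 3, edgeR called 4.64% of all genes in CLP+DCA versus CLP. It called 8 of the 12 neutrophil markers tested, all lower in CLP+DCA, and 0 of the 14 hepatocyte markers (9 of these had an unadjusted p under 0.05). The part of these cells in the serpin results was not tested.

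Of 11 Kupffer cell and macrophage markers, 5 lymphocyte markers and 2 exocrine pancreas markers tested, 0 were called by edgeR in CLP versus sham (1, 4 and 1 had an unadjusted p under 0.05, and DESeq2 on the 8 mice called 2, 2 and 0), and of 14 endothelial and stellate cell markers 1 was called, Stab1 (log2 fold change 0.71, adjusted p = 0.0432, edgeR). The Kupffer cell markers summed to 238 to 335 CPM in sham and 283 to 376 CPM in CLP, and Marco, a scavenger receptor, had the smallest p among them (2.56, adjusted p = 0.0554, edgeR). The lymphocyte markers summed to at most 6.24 CPM in any group and the pancreas markers to at most 13.4 CPM, and all 14 lymphocyte markers in the table had a mean under 1 CPM. The endothelial and stellate cell markers summed to 192 to 248 CPM in sham and 243 to 565 CPM in CLP.

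**Figure D4:**
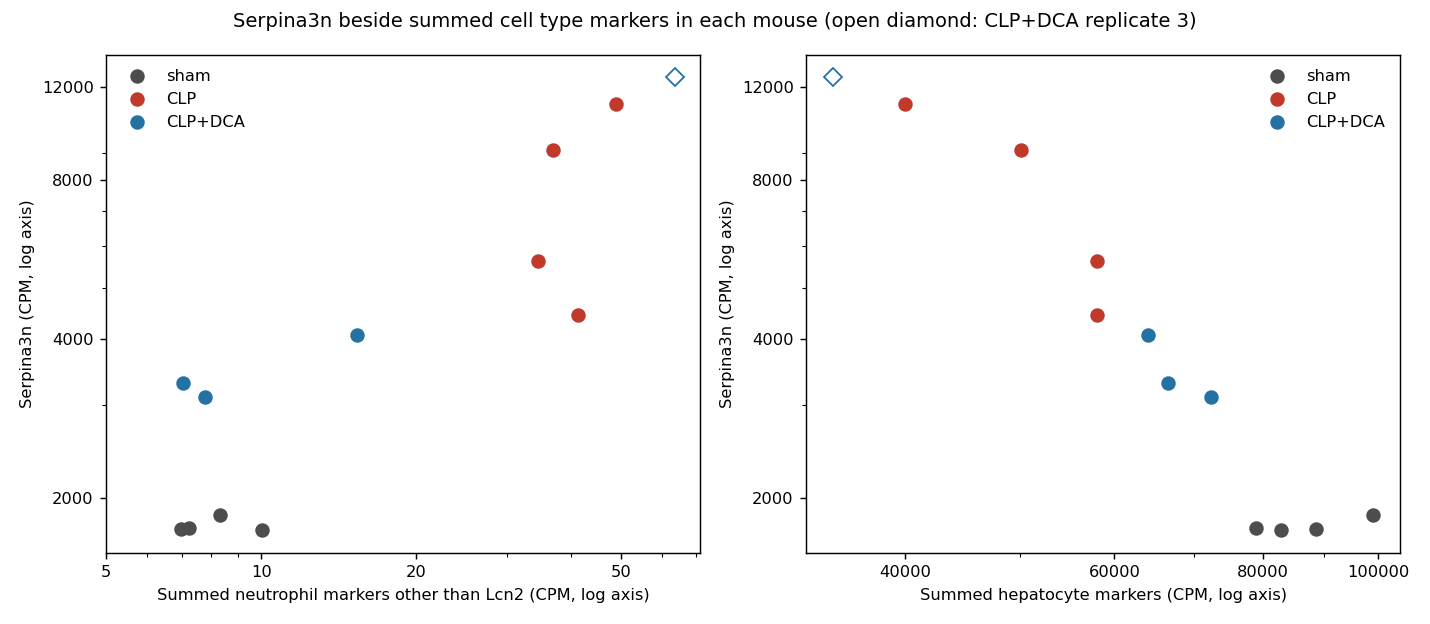
Serpina3n in CPM (vertical log axes) against the summed neutrophil markers other than Lcn2 (left, log axis, CPM) and the summed hepatocyte markers (right, log axis, CPM), 1 point per mouse, with an open diamond for CLP+DCA replicate 3. The mice with the highest Serpina3n, 9130.0 to 12517 CPM, have the lowest hepatocyte sums. All 4 CLP+DCA mice have Serpina3n above sham. Their neutrophil sums are 7.06 and 7.76 CPM in replicates 1 and 4, within the sham range, and 15.4 and 63.7 CPM in replicates 2 and 3, above it. The part of these cells was not tested.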

How the data were processed

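RNA-seq of 12 livers (1 library per mouse, 4 mice in each of 3 groups taken from the labels) was analysed from the deposited whole-number counts of reads per gene, which the authors made with STAR 2.5 and the featureCounts program of Subread 1.5.0-p1 on mm10, per the submitters' processing notes. The annotation and strand setting of the counting are not given in the sources used here. The authors compared groups with DESeq2. Here, genes were filtered by filterByExpr (minimum count 10) and scaled by TMM, and 1 robust quasi-likelihood fit of all 12 mice was made in edgeR 4.0.16 (R 4.3.3), with Benjamini-Hochberg adjustment over all genes tested and an FDR of 0.05. Levels are CPM on TMM library sizes, and a prior count of 2 was used for log2 CPM in correlations. The fit was also run on simulated counts, in which no library was made to stand apart as CLP+DCA replicate 3 does. No result given here rests on that simulation. The p-values set each group difference against the spread between mice, which was estimated over all 12 mice in 1 fit. The counting error was set by 24436513 to 44266819 reads per mouse.

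The 10 serpins and all gene lists were chosen with earlier results of these data known. All 10 serpins are named. Of each list, the called genes with the 4 largest log2 fold changes in CLP versus sham, or otherwise the 2 with the smallest p, could be named, and any others are marker genes given for their level. Likeness of pattern was ranked by Pearson's r over the 12 mice. Alternatives were DESeq2 1.42.0, voom weights in limma 3.58.1, fits of the 8 mice compared, other scalings, filters and thresholds, a replicate block and leaving out each mouse. Correlations, likeness and gene lists without CLP+DCA replicate 3 were added after the data were seen. Lengths and shared 100-base windows were computed from GENCODE, and promoter windows come from RefSeq (GRCm38.p6). Shares, sums and correlations were not tested.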

Additional observations from a re-analysis of the deposited data

Results flagged for a closer look

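In each group of 4 mice, the highest and lowest values of each serpin and of the family sums were compared with the others by Dixon's ratio at its 95% critical value. Of 36 such groups, 6 held a mouse far from the other 3, where chance alone gives about 1 in 20, and 4 of the 6 concerned CLP+DCA replicate 3. In this mouse Serpina3n was at 12517 CPM (3113 to 4062 CPM in the other 3 mice), Serpina3m at 2291 CPM (789 to 920.0 CPM), Serpina3c at 12.9 CPM (0.907 to 1.21 CPM) and the summed Serpina3 genes at 33678 CPM (14370 to 16556 CPM). These are measures of 1 library and not independent of each other. In sham replicate 3 Serpina1c was at 4589 CPM (3607 to 3741 CPM in the other sham mice). In sham replicate 4 Serpina3n was at 1858 CPM (1739 to 1758 CPM), a small distance in a group with little spread.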

How the results depend on the processing

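In CLP versus sham, 3 serpins were called in the fit reported. The count was 7 with DESeq2 on all 12 mice (13.4% of all genes called) or on the 8 mice compared (23.2%), with edgeR on those 8 mice (18.3%) and with voom weights (26.2%), 6 at an FDR of 0.1 (15.3%), 1 without a low-count filter (0.647%), 0 at an FDR of 0.01 (0.0758%), and 0 to 7 when 1 mouse was left out (0.0749 to 23.8%), against 2.78% in the fit reported. In CLP+DCA versus sham, where 0 were called, DESeq2 on all 12 mice (1.79% of all genes) or on the 8 mice (1.19%) and voom (3.76%) each called 2, against 0.0379% of all genes, and each fit without 1 mouse called 0. In CLP+DCA versus CLP, where 0 were called, voom called 4 (10.2% of all genes) and the fits without 1 mouse 0 to 4, the 4 only without CLP+DCA replicate 3. The labels do not say whether mice of the same replicate number were paired, and the fit reported did not pair them. Correlations of same-numbered deviations ran from -0.46 to 0.55, which cannot settle this. With the replicate block, 0 serpins were called in each comparison (46 genes in all in CLP versus sham), with 0 proteases, 1 acute phase regulator, 0 hepatocyte, 1 neutrophil and 0 endothelial and stellate markers. DESeq2 on the 8 mice, which called 23.2% of the genes with an adjusted p, called 15 other serpins, 7 proteases, 14 regulators and 14 folding and export genes. Among the markers it called 9 hepatocyte, 11 neutrophil, 2 Kupffer cell, 2 lymphocyte and 7 endothelial and stellate markers.

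Log2 fold changes that turned sign were small and not called. Serpina1e in CLP versus sham was -0.077 with library size alone and -0.027 to 0.301 over the fits without 1 mouse, below 0 without sham replicate 2 or 3. Serpina1a in CLP+DCA versus CLP was 0.019 with voom, 0.096 with library size alone and -0.127 to 0.0999 over the fits without 1 mouse, above 0 without CLP replicate 1 or CLP+DCA replicate 3, and Serpina1b was -0.019 to 0.250, below 0 without CLP+DCA replicate 4. Scaling by library size alone moved the median over all genes in CLP versus sham from 0.02 to -0.15 and the share of higher calls from 58.9% to 47.8%. The summed Serpina3 difference in CLP versus sham ranged from 1.02 to 1.35 on the log2 scale. The causes were not tested. Depth limited Serpina3c most, at 20 to 29 reads per sham mouse, and shared sequence limits single Serpina1 copies.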
